A study of Mus musculus with 72 samples.

Results

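Livers of 3 female mice under chronic circadian misalignment were compared with livers of 3 female control mice, all taken at the stated clock time of 00:00 (the label 0 h). They were chosen by sex, treatment and clock time, and are 6 of the 72 livers of a study that sampled both sexes, both treatments and 6 clock times with 3 mice in each group. Both groups were C57bl6 mice of 8 to 16 weeks on a 12:12 h light and dark cycle, and both ate a diet with 42% of calories from fat, so the controls share that diet. The labels call the mice biological replicates. They do not describe the misalignment schedule, or how 00:00 related to the light cycle of a misaligned mouse on the day of collection. Poly(A) RNA of the whole liver was sequenced. Levels are given as CPM, the counts of a gene scaled to a common library size, and a log2 change is misaligned minus control.

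The liver clock is a loop in which BMAL1 and its partners CLOCK and NPAS2 activate the PER, CRY and REV-ERB repressors that switch them off again. Feeding and insulin act on the same organ through the SREBP transcription factors, which turn on the genes of fatty acid and cholesterol synthesis, and in mice these genes run highest around the nightly meal.

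The 6 libraries held 11853854 to 12379319 gene counts (all 72, 11551524 to 12529963), and 15066 of 27846 genes were tested by edgeR's quasi-likelihood test with the spread estimated over all 24 groups of 3. Xist and Eif2s3y went against the sex label of 0 of the 72 libraries. Livers of 1 group differed beyond sampling noise, with a chi-square per degree of freedom of 16.1 to 40.4 between replicates. Hepatocyte markers fitted the tissue: the 8 listed genes summed to 99041 to 115255 CPM in controls and 105200 to 139369 in misaligned livers. Of 4 fat markers Adipoq and Lep had 0 counts over the 6 libraries, Plin1 had 2 in all, and Cfd had 45 in controls and 26 in misaligned livers. Of 4 pancreas markers in the table Prss2 and Cpa1 had 1 count each and Ctrb1 had 2 in each group, while Cela1 had 270 in controls and 319 in misaligned livers. Of 7 neutrophil markers Ly6g had 0 and Camp 1 and 2, while S100a9 had 39 and 118 and Lcn2 had 1088 and 1638.

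At 00:00, 1 gene passed the test in females, a Benjamini-Hochberg adjusted p under 0.05 over all genes (0.00664% of those tested). This was Plekhd1, and it fell. At an unadjusted p under 0.05, 315 genes (2.09%) were higher and 349, Plekhd1 included (2.32%), lower (4.41% in either direction), and the 3 misaligned livers lay above all 3 controls for 744 genes (4.94%) and below them for 715 (4.75%). Without control replicate 3, 9 genes were called, all lower: Plekhd1, Rims4, Dlat, Abhd5, Lrpap1, the platelet genes Ppbp, Gp1ba and Tubb1, and the pseudogene Gm7329. Without misaligned replicate 2 there were 2 and without misaligned replicate 3 there were 3, and without control replicate 1 there were 0. The median log2 change over all genes was 0.01, with a median standard error (SE) of 0.24. Lists of lipid synthesis genes and of blood cell genes leaned lower, and a list of interferon response genes leaned slightly higher.

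**Figure D1:**
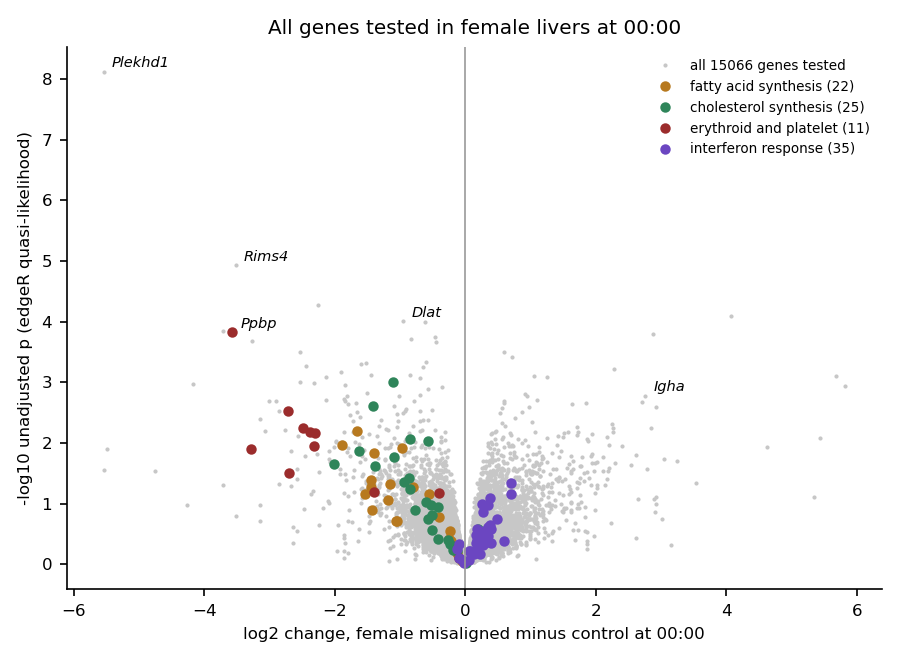
Each grey point is 1 of the 15066 genes tested, with the log2 change (female misaligned minus control at 00:00) on the x axis and −log10 of the unadjusted edgeR p on the y axis. Coloured points are members of 4 gene lists: those of fatty acid synthesis, cholesterol synthesis and blood cells lie mostly to the left of 0, and Plekhd1 stands alone at the top.

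Plekhd1 (ENSMUSG00000066438, GRCm38 chromosome 12, 80692591 to 80724214, plus strand) encodes a protein with a pleckstrin homology domain and coiled coils. Control replicates 1, 2 and 3 had 11.8, 3.73 and 1.20 CPM, and misaligned replicates had 0.16, 0.165 and 0 CPM. The groups do not overlap, but the controls spread widely, and the misaligned values rest on 2, 2 and 0 counts against 143, 49 and 14. The fitted log2 change was -5.54 ± 0.87 (SE, n = 3 and 3; edgeR adjusted p = 0.000115). Reads from introns of the gene again put all controls above all misaligned livers, with 48.0, 16.5 and 6.78 intron CPM against 1.56, 0 and 0. These rest on 28, 11 and 4 against 1, 0 and 0 counts. Intron CPM are scaled to the intron totals (617246 to 623738 in these libraries), so their size cannot be set against gene CPM. The call was lost with limma-voom (adjusted p = 0.667), DESeq2 (adjusted p = 0.148), edgeR's older dispersion estimate (adjusted p = 0.309), edgeR on the female libraries alone (adjusted p = 0.38), edgeR on the 6 compared libraries alone (adjusted p = 0.988) and edgeR without control replicate 1 (adjusted p = 0.0666). It was also lost with replicate number 1 (adjusted p = 0.356) or 2 (adjusted p = 0.317) left out of all groups, while the log2 change stayed between -6.14 and -4.39 in all 21 alternatives. Plekhd1 was close to absent in males, whose group means ranged from 0.0301 to 0.111 CPM.

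Over the day, Plekhd1 means in control females were highest at 00:00 (5.58 ± 5.54 CPM, SD, n = 3) and 04:00 (4.54 ± 7.33). They were 0.297 or less at 8, 12, 16 and 20 h. The controls at 04:00 ranged from 0.0823 to 13.0 CPM, so that mean does not show a level shared by the 3 livers. In misaligned females its highest mean was 3.45 ± 2.38 CPM (SD, n = 3) at 20 h, against 0.279 ± 0.296 in controls at that time, a difference that did not pass (edgeR adjusted p = 0.13). The change at 00:00 differed from the mean change at the other 5 clock times by -6.49 on the log2 scale (edgeR adjusted p = 0.000157). That test called 1 gene, Plekhd1 (0.00664% of genes), and gave 541 at an unadjusted p under 0.05 (3.59%). It called 0 genes with limma-voom, DESeq2, edgeR's older dispersion estimate, the female libraries only, a mean of at least 5 CPM, and without control replicate 1.

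The 250 bases before the RefSeq start of Plekhd1 (build GRCm38.p6, chr12:80692351-80692600, plus strand) are shown because it is the gene that passed. Both capital stretches match the CCAAT box, CCAAT or its reverse complement ATTGG, the sequence read by the factor NF-Y. A CCAAT box on either strand was in 33.8% of 32851 such windows of the genome, so a match is common, and it describes letters rather than binding.
Plekhd1: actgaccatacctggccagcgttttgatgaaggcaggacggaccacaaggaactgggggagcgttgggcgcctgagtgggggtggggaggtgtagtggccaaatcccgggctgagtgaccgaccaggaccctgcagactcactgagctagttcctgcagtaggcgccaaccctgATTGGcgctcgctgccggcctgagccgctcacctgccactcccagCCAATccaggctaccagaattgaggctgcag

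An earlier analysis of these same libraries listed 5 genes whose curve over the day differed in misaligned females: Plekhd1, Rims4, Pxdc1, Adcy1 and Tmem218. All 5 had negative log2 changes, 4 of them at an unadjusted p under 0.05 (2.32% of all genes). These livers took part in choosing the list, so its direction is a description. Rims4, a gene of synaptic vesicle release machinery, had 7.52, 15.7 and 2.32 CPM in controls and 1.20, 0.66 and 0.34 in misaligned livers. All 3 misaligned livers lay below the lowest control, with a log2 change of -3.52 ± 0.74 that did not pass (edgeR adjusted p = 0.0876). Adcy1, an adenylate cyclase that makes cyclic AMP, had 59.9, 44.1 and 25.2 CPM against 18.3, 8.66 and 8.51 (log2 change -1.86 ± 0.57). Pxdc1 had 164, 123 and 102 CPM against 84.7, 78.2 and 57.5, again with no overlap. Tmem218 did not share this: its log2 change was -0.09 and its groups overlapped.

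**Figure D2:**
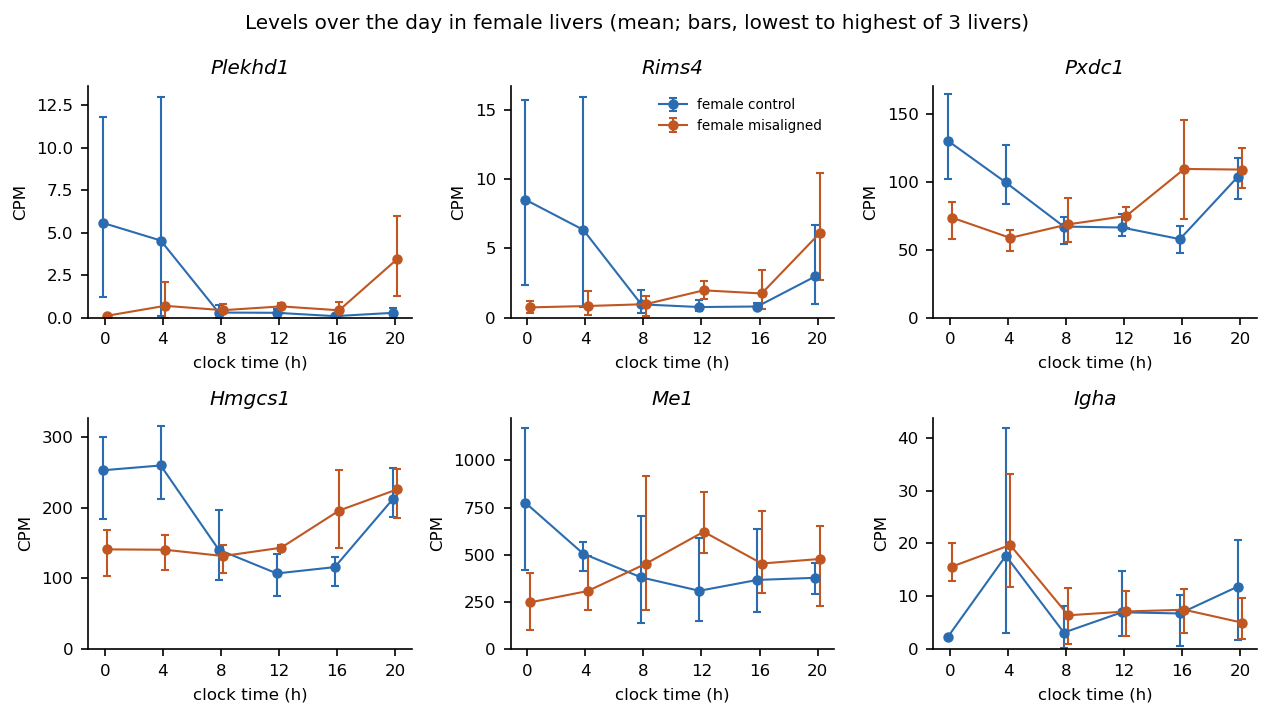
CPM (y axes, from 0) of Plekhd1, Rims4, Pxdc1, Hmgcs1, Me1 and Igha at the 6 stated clock times (x axes, h) in female control and female misaligned livers. Points are means of 3 livers and bars run from the lowest to the highest liver; at 00:00 the bars of the 2 treatments do not meet for any of the 6 genes, and the Plekhd1 mean of misaligned livers is highest at 20 h.

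Genes of fatty acid and triglyceride synthesis were lower as a group without any of them passing the test. Of 22 listed genes, all of them measured, 21 had a negative log2 change and the median was -1.01, against 0.01 over all genes. At an unadjusted p under 0.05 there were 6 lower (2.32% of all genes) and 0 higher (2.09%). In 5 all misaligned livers lay below all controls (4.75% of all genes). The median liver values set the livers in a graded order rather than in 2 blocks. Relative to the control mean the list's median log2 level was 0.39, 0.10 and -0.59 in control replicates 1, 2 and 3, and -0.27, -1.22 and -1.24 in misaligned replicates 1, 2 and 3. Control replicate 3 thus lay below misaligned replicate 1.

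Me1, the cytosolic malic enzyme that yields NADPH for fatty acid synthesis, had 1174, 738 and 417 CPM in controls and 401, 238 and 102 in misaligned livers. The highest misaligned liver lay just under the lowest control, and the log2 change was -1.65 ± 0.58 (edgeR adjusted p = 0.863). Acss2, which makes acetyl-CoA from acetate, had 1210.0, 781 and 303 CPM against 283, 208 and 128, with the same narrow gap (log2 change -1.89 ± 0.71). Acly, which makes acetyl-CoA from citrate, had 2595, 1675 and 732 against 1047, 319 and 364 CPM, where misaligned replicate 1 reached above control replicate 3. G6pdx, the first enzyme of the pentose phosphate route to NADPH, belongs to the list of oxidative stress genes. It had 86.8, 39.8 and 13.4 CPM against 15.1, 16.9 and 7.06, with a log2 change of -1.84 ± 0.53. Dlat, a subunit of the pyruvate dehydrogenase complex that feeds acetyl-CoA from glucose, was lower in every misaligned liver: 140.2, 141 and 91.7 CPM against 83.6, 61.9 and 47.6 (log2 change -0.95 ± 0.23, edgeR adjusted p = 0.252).

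The committed steps showed the same lean with more overlap. Acaca, the acetyl-CoA carboxylase of fatty acid synthesis, had 600.1, 527 and 243 CPM in controls and 287, 129.8 and 104 in misaligned livers (log2 change -1.40 ± 0.55). Acacb, the mitochondrial form that restrains fat burning, had 682, 391 and 275 CPM against 263, 188 and 155, with no overlap. Fasn, the fatty acid synthase, had 5732, 4860.1 and 2029 CPM against 4416, 1034 and 670.3; its misaligned replicate 1 lay between the controls, and the log2 change of -1.04 ± 0.79 was well inside the spread. Thrsp, a lipogenic protein of the same program, had 1204, 914 and 403 CPM against 641, 150.3 and 134. Pklr, the liver pyruvate kinase, had 1113, 993 and 704 against 749, 495 and 188. For Acaca, Thrsp and Pklr misaligned replicate 1 lay above control replicate 3. The desaturase Scd1 was the most abundant of these, at 50481, 41963 and 25442 CPM against 28552, 15434 and 23591.

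The genes of the transcription factors above these enzymes had log2 changes near 0. Srebf1, which encodes SREBP-1, had 676, 723 and 636 CPM in controls and 1008, 434 and 519 in misaligned livers (log2 change -0.05 ± 0.38). Mlxipl, which encodes the glucose sensor ChREBP, had a log2 change of -0.12 ± 0.28. The groups overlap for each gene.

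Cholesterol synthesis genes leaned lower too, with a smaller median. The fitted change was negative for 23 of the 25 listed genes, all of them measured, and its median was -0.57. At an unadjusted p under 0.05 there were 10 lower (2.32% of all genes) and 0 higher (2.09%). Groups did not overlap, with misaligned lower, for 5 (4.75% of all genes), and 0 passed the adjusted test. The median log2 level by liver was 0.39, 0.10 and -0.58 in controls and -0.38, -0.63 and -0.81 in misaligned livers, so control replicate 3 again lay among the misaligned livers.

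The genes spanned the whole route. Acat2, which condenses acetyl-CoA at its start, had 168, 119 and 68.9 CPM in controls and 69.4, 50.9 and 45.8 in misaligned livers (log2 change -1.10 ± 0.32, edgeR adjusted p = 0.466). Hmgcs1, which makes HMG-CoA, had 301, 274 and 184 CPM against 169, 151 and 104, with all misaligned livers below all controls (log2 change -0.84 ± 0.31). Mvd, at the end of the mevalonate steps, had 49.1, 31.2 and 12.8 CPM against 18.8, 7.17 and 4.17. Sqle, the squalene epoxidase, had the largest fitted change of the list at -2.00 ± 0.85, with 106, 57.5 and 23.1 CPM against 25.0, 14.8 and 6.55. For both Mvd and Sqle misaligned replicate 1 lay above control replicate 3. Lss, which closes the sterol ring, had 94.6, 74.9 and 39.4 against 37.7, 30.7 and 29.9 CPM, without overlap. Nsdhl, a later sterol dehydrogenase on the X chromosome, had 91.1, 72.9 and 38.8 CPM against 32.2, 24.7 and 19.1, also without overlap (log2 change -1.41 ± 0.44, edgeR adjusted p = 0.605). Srebf2, which encodes the regulator SREBP-2, was level at 57.0, 56.7 and 50.0 against 54.2, 57.9 and 52.9 CPM.

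**Figure D3:**
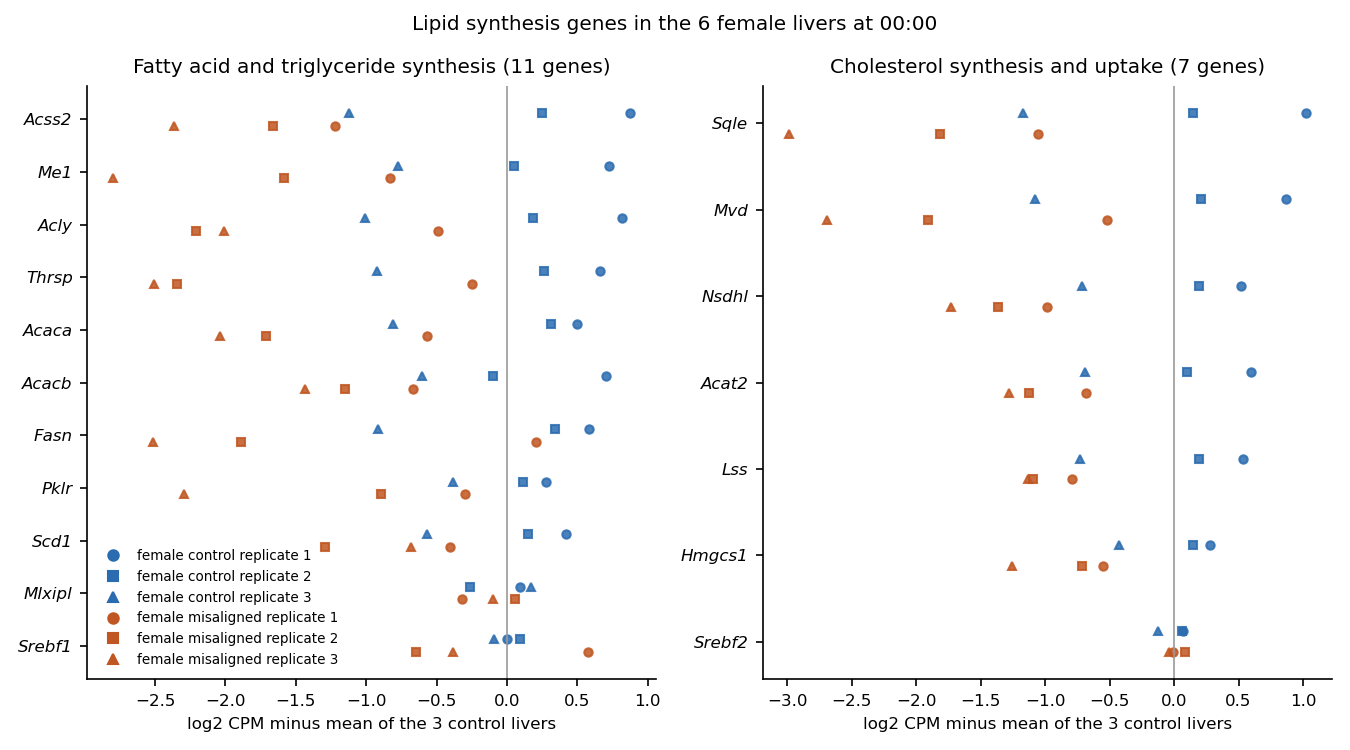
Log2 CPM of the described members of the fatty acid synthesis list (left) and the cholesterol list (right) in the 6 female livers at 00:00, minus the mean of the 3 controls (x axis). Each symbol is 1 liver, with circles, squares and triangles for replicates 1, 2 and 3 of each group; most misaligned livers lie left of 0, control replicate 3 lies near or among them for most enzymes, and Srebf1, Mlxipl and Srebf2 show groups that overlap around 0.

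How many of these genes reached an unadjusted p under 0.05 depended on single livers, while the sign of both medians did not. With 1 liver left out at a time, the count of lower fatty acid synthesis genes was 1 without control replicate 1, 4 without control replicate 2, 10 without control replicate 3, 12 without misaligned replicate 1, 3 without misaligned replicate 2 and 0 without misaligned replicate 3. For cholesterol synthesis these counts were 3, 8, 14, 11, 5 and 3. Over all genes the counts of lower genes in the same fits were 259, 287, 424, 511, 283 and 283, of 15330 to 15342 tested, so the background moved too. The medians of the 2 lists ranged from -1.42 to -0.71 and from -0.77 to -0.41 in these fits.

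Intron reads, a second readout of the same libraries, leaned the same way. Over 10225 genes with enough intron counts 0 passed the edgeR test (445 at an unadjusted p under 0.05, smallest adjusted p 0.883 for Smad4, and 0 under each of 11 alternatives). Of 24 cholesterol synthesis genes 19 had a negative intron log2 change, 7 were lower at an unadjusted p under 0.05 (2.29% of all genes, against 2.06% higher) and 8 did not overlap with misaligned lower (5.26% of all genes). Of 22 fatty acid synthesis genes 21 were negative, 5 were lower at that p and 2 did not overlap. Lss had 80.6, 53.9 and 55.9 intron CPM in controls and 31.1, 24.8 and 29.8 in misaligned livers. Me1 had 1370.2, 786 and 586 against 433, 261 and 124 intron CPM.

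Promoters of 4 cholesterol genes that were lower at an unadjusted p under 0.05 are shown, because SREBP acts on genes of this route through short sterol elements, often with NF-Y at a CCAAT box. Windows were found for 17 of the 25 listed genes, and 16 of the 17 held a CCAAT box on either strand (33.8% of all windows). A gene counted here if any of its windows held the motif, while the percentages are of single windows, so these are unlike measures. The window of Acat2, which is not printed, held neither a CCAAT box nor a sterol element. The 4 shown were thus picked among genes with a match. A strict sterol response element, TCACNCCAC on either strand, was in 1.05% of all windows and in 1 of the 17, that of Hmgcs1. For fatty acid synthesis genes windows were found for 16 of 22, with a CCAAT box in 12 and the sterol element in 1, that of Mlxipl. No printed match of one motif overlaps a match of the other. The windows (RefSeq, GRCm38.p6, 250 bases before the start, matches in capitals) are chr13:119690101-119690350 for Hmgcs1, chr10:76531355-76531604 for Lss and chrX:72918271-72918520 for Nsdhl, all plus strand, and chr8:122443423-122443672, minus strand, for Mvd.
Hmgcs1: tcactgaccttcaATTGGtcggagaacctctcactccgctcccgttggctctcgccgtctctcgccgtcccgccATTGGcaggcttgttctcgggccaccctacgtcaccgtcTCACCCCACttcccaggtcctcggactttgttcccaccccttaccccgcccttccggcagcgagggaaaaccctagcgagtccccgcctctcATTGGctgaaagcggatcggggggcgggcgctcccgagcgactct
Lss: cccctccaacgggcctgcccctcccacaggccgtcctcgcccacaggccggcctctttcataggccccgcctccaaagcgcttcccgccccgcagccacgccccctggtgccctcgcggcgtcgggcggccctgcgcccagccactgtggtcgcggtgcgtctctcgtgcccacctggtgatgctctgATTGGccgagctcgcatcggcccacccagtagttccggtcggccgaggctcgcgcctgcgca
Nsdhl: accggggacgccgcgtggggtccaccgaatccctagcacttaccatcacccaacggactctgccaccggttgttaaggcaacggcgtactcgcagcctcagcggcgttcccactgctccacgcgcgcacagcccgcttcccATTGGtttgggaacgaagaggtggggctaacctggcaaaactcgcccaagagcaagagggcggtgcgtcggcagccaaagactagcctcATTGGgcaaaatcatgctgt
Mvd: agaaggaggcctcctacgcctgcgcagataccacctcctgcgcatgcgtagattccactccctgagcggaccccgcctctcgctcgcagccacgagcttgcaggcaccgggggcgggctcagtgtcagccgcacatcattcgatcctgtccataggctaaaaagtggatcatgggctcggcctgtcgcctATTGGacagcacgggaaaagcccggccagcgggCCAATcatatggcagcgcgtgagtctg
In Hmgcs1 the sterol element TCACCCCAC lies 137 to 129 bases before the start, and the CCAAT boxes lie 237 to 233, 176 to 172 and 45 to 41 bases before it.

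Both lipid lists had negative medians in misaligned females at 00:00 and 04:00 and positive ones at the later times. The median log2 change of the cholesterol list was -0.57 at 00:00 and -0.82 at 04:00, then 0.10, 0.20, 0.59 and 0.19 at 8, 12, 16 and 20 h. Over all genes the test called 1 gene at 04:00 (0.00664%), 10 at 16:00 (0.0664%) and 0 at 8, 12 and 20 h. For fatty acid synthesis the median was -1.01 and -0.72, then 0.27, 0.60, 0.08 and 0.06. Against the mean change at the other clock times, 11 of 25 cholesterol genes differed at an unadjusted p under 0.05 (3.59% of all genes). So did 5 of 22 fatty acid genes, and 0 of either passed after adjustment. Hmgcs1, for example, had means of 253 CPM in control and 141 in misaligned females at 00:00, and of 116 and 196 at 16 h. Me1 had 776 and 247 at 00:00, and 309 and 622 at 12 h.

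In males at the same clock time, where misaligned and control livers are separate animals, 57 genes passed (0.378%). The male median was -0.37 for cholesterol synthesis and -0.23 for fatty acid synthesis, with 1 and 0 genes lower at an unadjusted p under 0.05 (3.83% of all genes). The test of the difference between the sexes called 0 genes by edgeR (765 at an unadjusted p under 0.05, 5.08%, smallest adjusted p 0.291 for Sdf2l1), 0 by limma-voom and 1 by DESeq2. It gave 2 of 25 cholesterol and 2 of 22 fatty acid genes at an unadjusted p under 0.05, among them Acat2 and Thrsp. The same test gave 18 of 30 unfolded protein response genes and 8 of 20 clock outputs at that p, lists named here after their values were seen. In males 20 of those 30 genes were lower at that p, with a list median of -0.58, against a median of 0.11 in females.

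Core clock genes had small log2 changes in both directions. None of the 19 listed clock genes reached an unadjusted p under 0.05 in females at 00:00. With edgeR on the 6 libraries alone, 4 of 17 were lower and 2 higher at that p (over all 13373 genes, 314 and 301). On the female libraries alone 1 of 19 was lower and 2 higher (over all 14522 genes, 347 and 368). In males at 00:00, 6 were higher (3.98% of all genes) and 1 lower at that p, and 2 passed. Npas2 had 31.2, 21.9 and 27.7 CPM in controls and 11.6, 15.7 and 13.7 in misaligned livers, and Arntl, which encodes BMAL1, had 40.0, 35.6 and 36.1 against 19.1, 31.5 and 31.6. These activator genes, and the repressor gene Cry1, had all misaligned livers below all controls. Tef and Nr1d2, of the opposite phase, were the 2 of 19 genes with all misaligned livers above all controls. Tef had 38.0, 34.7 and 45.4 CPM against 60.2, 56.1 and 55.4, and Nr1d2 had 19.6, 13.3 and 30.4 against 32.6, 39.2 and 31.4. Dbp, which is near its daily low here, had 0.578, 1.22 and 2.41 against 3.61, 1.73 and 1.36 CPM, with overlap. The non-overlapping genes are 6 of 19, against 9.68% of all genes, and their log2 changes, from -0.98 for Npas2 to 0.71 for Nr1d2, were each under 2 SE.

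Reading each liver's time from 14 of these genes against the control day curve gave offsets from the stated time of -0.27, -0.47 and 0.94 h in controls and 1.30, 0.77 and 0.54 h in misaligned livers. Control replicate 3, the control with the lowest lipid synthesis lists, lay within the misaligned range. The mean offset was 0.80 h later in misaligned livers (0.87 ± 0.39 against 0.07 ± 0.77 h, SD, n = 3 each), which the exact 2-sided permutation test did not separate (p = 0.3, where 3 against 3 allows no less than 0.1). Amplitudes relative to the control curve were 1.19, 1.03 and 1.17 in controls and 0.944, 1.07 and 0.969 in misaligned livers (exact permutation p = 0.2). The part of the clock reading in the lipid values was not tested.

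**Figure D4:**
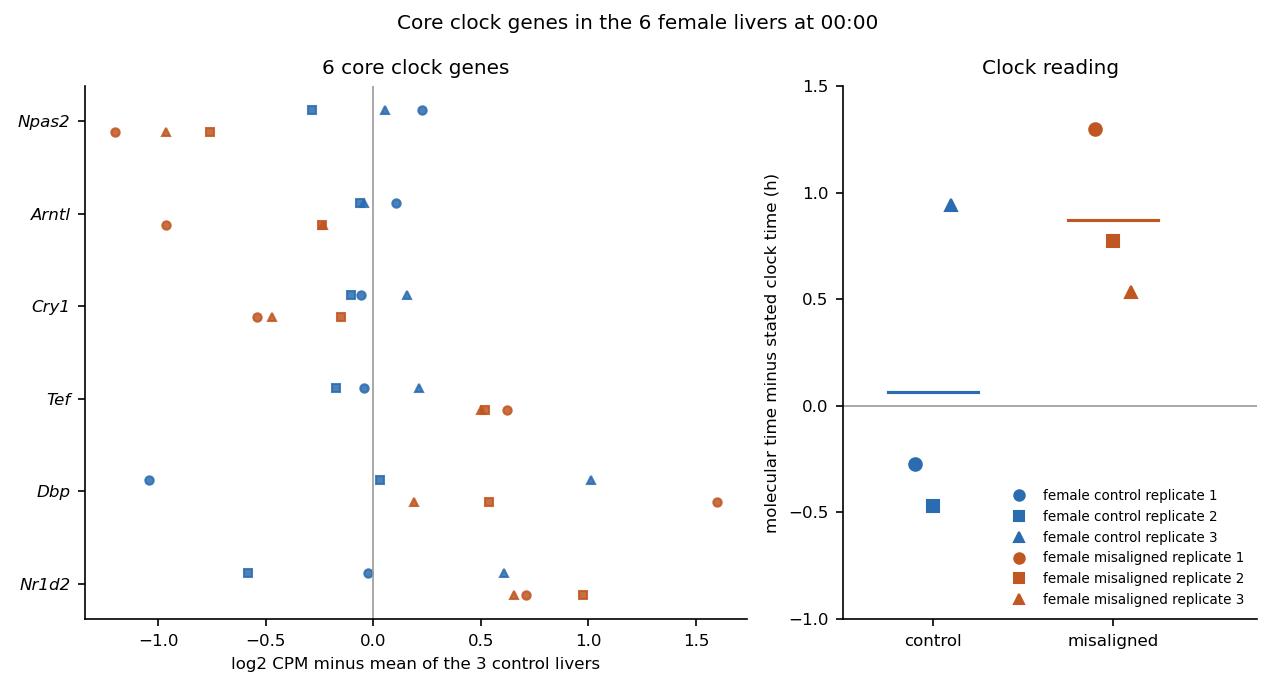
Left, log2 CPM of the 6 described core clock genes in each of the 6 female livers at 00:00, minus the mean of the 3 controls. Right, the time read from 14 clock genes minus the stated clock time (h, y axis) for each liver, with group means as lines; control replicate 3 at 0.94 h lies within the misaligned range of 0.54 to 1.30 h.

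Set beside control females 1 sampling step away, misaligned livers at 00:00 differed in 4 genes from controls at 04:00 (0.0265%) and in 0 from controls at 20:00 by edgeR (682 at an unadjusted p under 0.05), with 6 by DESeq2. The 4 were lower: Plekhd1, Slc4a1, Fcrl5 and Gm22513, named here after their values were seen. These comparisons share the misaligned livers with the main one. Cholesterol genes lower at an unadjusted p under 0.05 numbered 10 of 25 against controls at 04:00 (3.16% of all genes) and 0 of 25 against controls at 20:00 (1.96% of all genes). Fatty acid synthesis genes did not share this: 1 of 22 was lower at that p against controls at 04:00 and 1 of 22 against controls at 20:00.

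Each of the 11 listed erythroid and platelet genes had a lower fitted mean in misaligned livers (median log2 change -2.37). In this list 8 were lower at an unadjusted p under 0.05 (2.32% of all genes). Also, 8 did not overlap, with misaligned lower (4.75% of all genes), and 0 passed. The beta globin gene Hbb-bs had 265, 473 and 98.3 CPM in controls and 44.6, 80.1 and 25.3 in misaligned livers (log2 change -2.48 ± 0.86, edgeR adjusted p = 0.863). Alas2, the erythroid heme enzyme, did not follow: 40.4, 53.7 and 33.5 against 31.2, 20.8 and 67.1 CPM. The globin pairs Hbb-bs and Hbb-bt, and Hba-a1 and Hba-a2, are near-identical copies, so how reads were split within a pair is uncertain. In whole liver, fewer cells of a type and less RNA per cell cannot be told apart.

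Control replicate 2 had the highest summed level of this list and stood apart for platelet genes. Ppbp, a platelet chemokine, had 17.3 CPM there against 0.578 and 0.687 in the other controls and 0.425 to 0.577 in misaligned livers. The platelet receptor gene Gp1ba had 3.20 CPM there and the platelet tubulin Tubb1 had 3.65, with 0 to 0.321 in the other 5 livers for both. Without control replicate 2, 3 blood genes were lower at an unadjusted p under 0.05 in place of 8 (287 of all 15332 genes in that fit). Summed over the list the 6 livers had 529, 902, 242, 132, 179 and 126 CPM in the order of control and misaligned replicates. Control replicate 2 was the highest liver by this sum and control replicate 1 by the lipid lists, while control replicate 3 was the lowest control in each. The list's median log2 change in females was also negative at the other clock times: -0.07, -0.81, -1.05, -0.80 and -1.13 at 4, 8, 12, 16 and 20 h. It was -1.21 in males at 00:00. The part of blood in other results was not tested.

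Igha, the constant region of IgA heavy chains, had 2.15, 2.44 and 2.32 CPM in controls and 14.0, 12.9 and 20.0 in misaligned livers. The groups are well apart, yet the log2 change of 2.76 ± 0.83 did not pass over all libraries (edgeR adjusted p = 0.554), and it passed when the 6 libraries were fitted alone (edgeR adjusted p = 0.00663). At 04:00 control females ranged from 3.04 to 41.8 CPM of Igha, a far wider range than at 00:00. Ighm, the IgM heavy chain, went the other way at 47.3, 51.2 and 16.7 against 15.0, 20.0 and 10.3 CPM. The variable segment Igkv10-94 had 4.17 CPM in misaligned replicate 1 and 0 to 0.248 in the other livers. Reads of such segments can be split among close copies. The plasma cell genes Jchain and Mzb1 had log2 changes of 0.65 and 0.76, with overlap, and of 9 lymphocyte markers 0 reached an unadjusted p under 0.05.

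Interferon response genes leaned slightly higher. Of 35 genes 30 had a positive log2 change, and the list's median was 0.26. In 13 all misaligned livers lay above all controls (4.94% of all genes). However, 1 was higher at an unadjusted p under 0.05 (2.09% of all genes), and 0 passed. Usp18, which dampens interferon signalling, had 5.78, 9.29 and 10.1 CPM in controls and 13.6, 11.3 and 16.1 in misaligned livers (log2 change 0.70 ± 0.34). Oas1a, an RNA sensor, had 5.04, 5.63 and 3.78 against 7.21, 6.92 and 9.44. The class I antigen gene H2-D1 had 495, 516 and 525 CPM against 630.0, 616 and 608, a small and even shift. The list's median by liver was -0.03, 0.01 and 0.04 in controls and 0.25, 0.23 and 0.17 in misaligned livers, and it stayed between 0.20 and 0.27 with each liver left out in turn. It was -0.06 in males at 00:00. The fit of the 6 libraries alone gave 8 genes of the list higher at an unadjusted p under 0.05 (301 of all 13373 genes). Several of these genes belong to families of close copies, among which reads can be split. Kupffer cell and neutrophil markers, 0 of 8 and 0 of 5 tested at an unadjusted p under 0.05, had medians of 0.11 and 0.76.

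**Figure D5:**
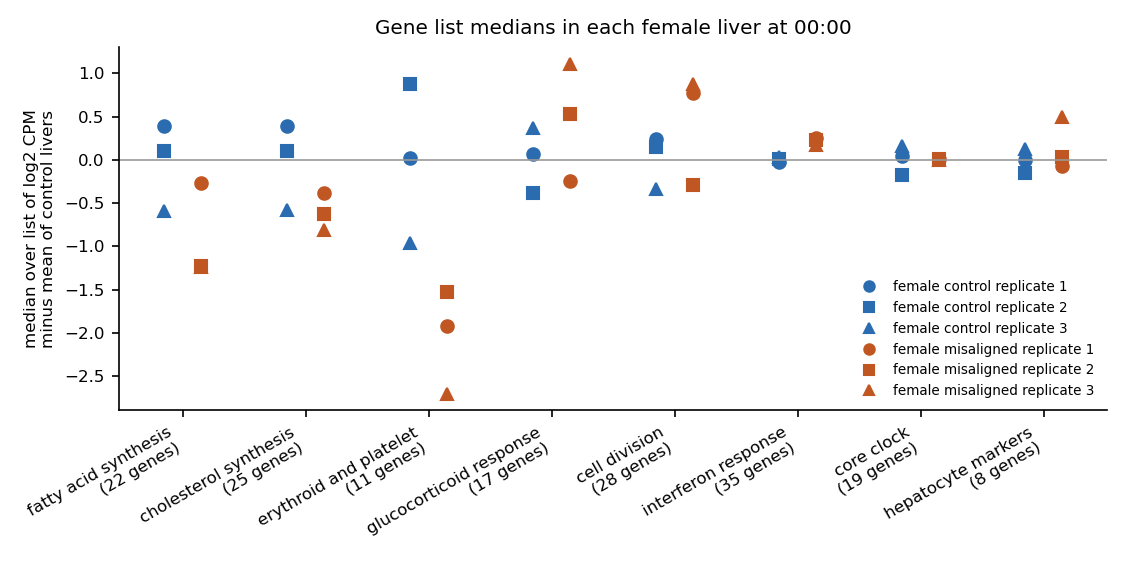
Median over each list's genes of log2 CPM minus the control mean (y axis), for 8 gene lists (x axis), in each of the 6 female livers at 00:00. The interferon medians are close within a group (0.17 to 0.25 in misaligned livers), the cell division and glucocorticoid medians are highest in misaligned replicate 3, and the blood medians are highest in control replicate 2.

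The counts of 2 further lists rested on misaligned replicate 3. Of 17 glucocorticoid response genes 16 leaned higher (median log2 change 0.54). Klf9, a stress hormone target, was the 1 higher at an unadjusted p under 0.05 (2.09% of all genes). It had 17.4, 12.8 and 22.0 CPM against 14.3, 35.7 and 60.7. The metallothionein Mt2 had 6.20, 12.7 and 17.5 against 8.98, 34.5 and 79.5 CPM. Misaligned replicate 3 was highest for both and misaligned replicate 1 lay within the controls. Without misaligned replicate 3 the median was 0.17 and 0 genes of the list reached that p (over all 15330 genes, 188 higher and 283 lower).

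Cell division genes were positive in 25 of 28 cases, with 7 higher at an unadjusted p under 0.05 (2.09% of all genes). Plk1, a mitotic kinase, had 0.331, 0.457 and 0.0859 CPM in controls and 1.20, 0.247 and 4.59 in misaligned livers, and Ccnb1, the mitotic cyclin B1, had 0.413, 0.305 and 0.172 against 1.84, 0.165 and 5.02. Misaligned replicate 2 lay within or just under the controls. The list's median log2 level by liver was 0.24, 0.15 and -0.34 in controls and 0.77, -0.29 and 0.88 in misaligned livers, so replicates 1 and 3 were the high ones. The count was 0 without misaligned replicate 3 (188 of all 15330 genes) and 3 without control replicate 3 (379 of all 15342 genes). It was 0 of 14 with a mean of at least 5 CPM (174 of all 9679 genes). With the 6 libraries alone it was 0 of 23 (301 of all 13373 genes), and with limma-voom 1 of 28 (234 of all 15066 genes). The groups overlapped for all 28 genes. The amino acid genes Tdo2, Cth and Sds, the 3 of 30 higher at that p (2.09% of all genes), were highest in misaligned replicate 3. So was the clock output Noct, at 119 CPM there against 11.7 to 51.0 in the other 5 livers.

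Fasting genes leaned little. Of 30 targets of the fatty acid sensor PPAR alpha 3 were higher at an unadjusted p under 0.05 (2.09% of all genes). Among them, Creb3l3 had 160.1, 159 and 195 CPM against 196, 243 and 287. The mitochondrial carnitine enzyme Cpt2, also among them, had 132, 116 and 157 against 161, 162 and 174. Both had no overlap. Pck1, the gluconeogenic enzyme, had 2053, 616 and 2849 CPM against 1305, 2638 and 5721, a spread too wide to separate the groups. Of 23 genes of glucose metabolism 1 was lower at that p (2.32% of all genes), Pklr, which is also in the fatty acid synthesis list. In 6 all misaligned livers lay below the controls (4.75% of all genes). The clock output Leap2, a liver hormone that opposes ghrelin, had 90.1, 86.1 and 87.3 CPM against 66.7, 61.2 and 43.9.

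For the remaining lists the counts at an unadjusted p under 0.05 in either direction are given beside 4.41% of all genes. There were 0 of 18 for bile acids, 1 of 30 for the unfolded protein response, 0 of 22 for heat shock, 0 of 5 for cold-inducible genes, 0 of 10 for mitochondrial chaperones, 0 of 28 for the acute phase and 0 of 18 for immediate early genes. Without control replicate 3 the unfolded protein response count was 9 of 30 and that of the acute phase 3 of 28, all higher. Over all 15342 genes that fit gave 379 higher and 424 lower. Without misaligned replicate 1 the unfolded protein response had 3 higher and 1 lower, and the acute phase had 2 higher and 0 lower. Over all 15338 genes the fit without that liver gave 410 higher and 511 lower. With all livers kept there were 3 of 20 for clock outputs, 2 of 32 for drug metabolism and 2 of 25 for sex-biased genes. Ribosome biogenesis had 0 of 22, tRNA synthetases 1 of 18 and oxidative stress 3 of 16. Among cell types, 0 of 8 hepatocyte, 0 of 9 stellate and 0 of 7 endothelial markers reached that p, 1 of 6 bile duct markers did (Krt7, lower), and 1 of 4 plasma cell markers (Ighm, lower). The 1 fat and 1 pancreas marker with enough counts did not.

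Some of the genes with the smallest p-values lay outside the lists. Fmr1, the gene of the RNA-binding protein FMRP on the X chromosome, had 8.51, 9.06 and 10.0 CPM in controls and 15.7, 14.2 and 15.5 in misaligned livers (log2 change 0.72 ± 0.19, edgeR adjusted p = 0.364). Akap11, a protein kinase A anchor, had 15.4, 15.5 and 16.7 against 22.1, 21.6 and 28.2. Among those lower, Abhd5, the activator of the fat-splitting enzyme ATGL, had 47.4, 38.4 and 31.2 CPM against 28.3, 23.8 and 23.8 (log2 change -0.62 ± 0.15, edgeR adjusted p = 0.252). Anapc16, a subunit of the anaphase-promoting complex, had 32.0, 27.8 and 26.0 against 20.3, 19.5 and 22.7. None of these passed.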

How the data were processed

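Poly(A) RNA of 72 mouse livers was sequenced strand-specifically with 150-base paired reads, per the labels' protocols. The deposited values are whole-number counts of sense reads per gene. Reads were aligned with STAR 2.6.0c to GRCm38, per the submitters' processing notes. The totals are nearly equal across libraries in the deposited counts, and whether libraries were thinned to reach this is not given in the sources used here. The restricted (MIN) counts were used, the version with ambiguous reads (MAX) as an alternative, and restricted intron counts summed per gene as a further readout. One count is worth 0.0761 to 0.0859 CPM.

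Genes kept by edgeR's filterByExpr (edgeR 4.0.16, R 4.3.3) were fitted over 24 groups with TMM factors, a robust quasi-likelihood test, and Benjamini-Hochberg adjustment over all genes tested. Log2 levels by liver used a prior count of 2. Comparisons were contrasts of group means, 2-sided: misaligned against control at 00:00, that change against the other clock times and against males, and misaligned livers at 00:00 against controls at 04:00 and 20:00. The clock reading regressed core clock genes on the control day curve, with a control liver read against a curve fitted without it. Alternatives used limma 3.58.1 and DESeq2 1.42.0 among others. Gene positions come from GENCODE vM21 and promoter windows from RefSeq (GRCm38.p6). Figures used Python 3.11.15 and matplotlib 3.10.9.

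The comparison, its 34 gene lists (554 genes, 2 not in the table) and the tests were chosen with earlier results of these data known. Genes were named by rule: the core clock, the 12 smallest p-values in each direction with a mean of at least 1 CPM, up to 3 per list, and those of the difference and intron tests, without predicted genes and pseudogenes. Other list members, and genes called only under an alternative, were named after their values were seen. On simulated counts with the same design, 50 genes were changed at each fold. Of these, 36% were recovered at 1.5-fold, 62% at 2-fold, 98% at 4-fold and 100% at 8-fold, with 13 false calls among 15004 genes. These shares describe the simulated counts: in the livers, genes with fitted changes beyond 4-fold, such as Rims4 and Igha, did not pass.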

Additional observations from a re-analysis of the deposited data

Results flagged for a closer look

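Plekhd1 differed between clock times: its change at 00:00 minus its mean change at the other 5 clock times in females was -6.49 ± 1.04 (SE) on the log2 scale (edgeR adjusted p = 0.000157). The misaligned livers were lower at 00:00 (5.58 against 0.108 CPM, control against misaligned means of 3 livers) and higher at 20:00 (0.279 against 3.45 CPM). At 20:00 the misaligned livers ranged from 1.30 to 6.00 CPM and at 00:00 from 0 to 0.165 CPM. This difference was not called with limma-voom, DESeq2, edgeR's older dispersion estimate or the female libraries only, or without control replicate 1, and Plekhd1 was not tested with a mean of at least 5 CPM.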

How the results depend on the processing

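The 1 gene called at 00:00, Plekhd1, was also called with MAX counts, without a filter, under both other scalings (RLE size factors and total counts), with both replicate blocks and without misaligned males. The count was 0 with a mean of at least 5 CPM (where Plekhd1 was not tested), limma-voom, edgeR's older dispersion estimate, female libraries only and DESeq2, and 2 with the 6 libraries only (Igha and Ighg2b). It ranged from 0 to 9 with 1 liver or 1 replicate number left out. The difference from the other clock times gave 0 in place of 1 with at least 5 CPM, limma-voom, the older dispersion estimate, female libraries only and DESeq2, and 0 to 2 with livers or replicate numbers left out. The difference between the sexes gave 1 with DESeq2 in place of 0, and 0 to 5 with livers or replicate numbers left out. Against controls at 04:00 the 4 calls became 0 with at least 5 CPM, limma-voom and the older dispersion estimate, 22 with MAX counts and 1 with DESeq2, and 1 to 12 with livers or replicate numbers left out. Against controls at 20:00 the 0 calls became 1 with total counts, 1 with at least 5 CPM, 5 with female libraries only, 6 with DESeq2 and 5 without misaligned males, the last chosen after seeing the data. The cause of these moves was not tested. Intron counts gave 0 under all 11 alternatives, and the clock reading kept its sign, from 0.54 to 1.24 h. No change of direction was found for a called gene. At this depth a gene at 0.0859 CPM rests on 1 count.

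The replicate numbers are shared by the groups, and the labels do not say that a number marks a shared litter or day. Deviations of same-numbered control and misaligned livers correlated at 0.04, -0.23 and 0.00 over genes, so the numbers were not taken as pairs. With a replicate block, or a block within sex and clock time, 1 gene was called at 00:00, as without; the additive replicate block gave 3 calls against controls at 04:00 in place of 4 and changed no other count.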
